A study of Mus musculus with 4 samples.

Results

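The 8 erythroid membrane and transcription factor genes examined in the mouse heart mRNA-seq data were Slc4a1, Epb42, Ank1 and Rhag, which encode proteins of the red cell membrane and its skeleton, and Trim10, Hemgn, Klf1 and Gata1, which act while the red cell matures in blood-forming tissue. They were taken by gene symbol from the 23282 genes listed for each library, 7 under the present symbol and 1, Epb42, under its older symbol Epb4.2. They were chosen by their log2 levels in these same libraries, with earlier results in view, so the levels are a description and carry no test. The data comprised 4 heart libraries of CDF1 mice with a labelled age of postnatal day 28, which per the methods is about the age at purchase, before the experiment. The mice were male. Mice of the control group (label E-&T-) neither ran nor received tumor cells, those of the exercise-only group (E+&T-) ran on a treadmill at high intensity, those of the tumor-only group (E-&T+) received CT26 murine colorectal cancer cells through the tail vein, and those of the tumor-exercise group (E+&T+) received the cells and ran. Each group had 10 mice per the labels but 1 heart library, and the methods and text describe a representative mouse of each group for the skeletal muscle libraries without saying so for the heart. There was therefore no replicate, and a difference between libraries cannot be told apart from a difference between the hearts or preparations that were taken.

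Red blood cells lose their nucleus as they mature, and the RNA left in the youngest circulating cells, the reticulocytes, is mostly globin RNA. The transcription factors GATA1 and KLF1 switch on globin, heme and membrane genes in the nucleated precursors, and band 3, the product of Slc4a1, becomes the main protein of the finished membrane, where ankyrin, protein 4.2 and the Rh proteins tie it to the spectrin skeleton. A library of whole heart also holds RNA of the blood left in the tissue, and per the study's methods the mice were killed by exsanguination. The amount of blood left in each heart was not measured here. In bulk tissue, more cells of a type and more RNA per cell cannot be told apart.

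Before the values, the start regions of the genes are shown, because GATA1 and KLF1 are members of the set and act by binding short DNA words in front of genes. RefSeq windows on GRCm38.p6, the build that the labels name as mm10, were found for 6 of the 8 members and run from 250 bases before to 50 after the start. They were searched on both strands for 4 GATA words, whose matches did not overlap, and for a CACCC-type word of the kind that KLF factors bind. Of the 6 windows, 5 held a GATA word, those of Epb42, Rhag, Trim10, Hemgn and Klf1, against 29.8% of all 32851 windows of this length. The word AGATAA was in 3 of the 6, against 11.2% of all windows, and the word TGATAA was in 3, against 9.05%. The word AGATAG, in 8.95% of all windows, and the word TGATAG, in 7.29%, were in none of the 6. The CACCC-type word searched was CCNCNCCC, which was in 2 of the 6 windows, those of Gata1 and Hemgn, against 49.5% of all windows. The Gata1 window had no GATA word and 3 of these. The stretches shown hold no annotated exon and are read 5′ to 3′ on the strand of the gene, with the matched words in capitals, so that the first 2 GATA words, where they lie on the opposite strand, appear as TTATCT for the first of them and as TTATCA for the other. They are given for the 4 members whose GATA word lies in such a stretch and for Gata1. Epb42 is at chr2:121037073-121037127 (minus), Rhag at chr17:40810899-40811125 (plus), Trim10 at chr17:36869324-36869573 (plus), Klf1 at chr8:84901732-84901927 (plus) and Gata1 at chrX:7967911-7968160 (minus). The Gata1 stretch ends where the main coding transcript starts and lies within the gene, since a longer annotated transcript starts upstream of it.
Epb42: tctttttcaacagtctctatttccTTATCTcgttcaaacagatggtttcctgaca
Rhag: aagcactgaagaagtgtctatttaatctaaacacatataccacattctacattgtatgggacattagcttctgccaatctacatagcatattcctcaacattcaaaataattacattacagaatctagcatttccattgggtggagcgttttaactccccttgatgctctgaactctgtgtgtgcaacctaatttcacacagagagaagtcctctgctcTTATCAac
Trim10: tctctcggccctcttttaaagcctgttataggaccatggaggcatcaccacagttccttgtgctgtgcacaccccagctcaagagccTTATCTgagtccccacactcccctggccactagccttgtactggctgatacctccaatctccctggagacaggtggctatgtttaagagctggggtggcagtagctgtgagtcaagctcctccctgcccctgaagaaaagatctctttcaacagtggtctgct
Klf1: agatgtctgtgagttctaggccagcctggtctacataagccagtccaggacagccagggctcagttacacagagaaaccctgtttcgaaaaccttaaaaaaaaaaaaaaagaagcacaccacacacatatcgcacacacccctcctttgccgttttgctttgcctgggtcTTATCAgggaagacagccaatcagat
Gata1: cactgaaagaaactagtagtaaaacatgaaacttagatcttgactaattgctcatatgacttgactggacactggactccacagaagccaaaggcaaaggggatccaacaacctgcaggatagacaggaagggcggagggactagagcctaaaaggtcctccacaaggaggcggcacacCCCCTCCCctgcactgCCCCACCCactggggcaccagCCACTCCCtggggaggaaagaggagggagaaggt

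Counted from the RefSeq start, the GATA word began at −31 in Rhag, −80 in Klf1, −163 in Trim10 and −226 in Epb42. In the GENCODE annotation, Rhag, Klf1 and Epb42 start upstream of the RefSeq start. Their words therefore lie nearer to the GENCODE start than these positions show, most of all in Epb42, which starts at 121037072. The window of Hemgn, at chr4:46404134-46404433 on the minus strand, held the word TGATAA at −13 and the word AGATAA at 29, both outside the stretches shown, and its CACCC-type matches all lay in a single run of G. A match is a description of the letters, and binding was not measured.

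Levels are on the log2(normalized read count + 1) scale of the deposited values, from which the read counts were recovered, in totals of 6595398 to 11545976 per library. In 3′ end libraries, a long transcript is meant to give no more reads than a short one. The tissue label held in all 4 libraries, where the 10 cardiomyocyte markers summed to between 465260 and 531392 normalized reads. The tumor-exercise library stood apart in its globin reads, which took 37.3% of it against 8.76% in control, 8.40% in exercise-only and 7.86% in tumor-only. Some beta globin reads may be counted under 2 symbols of the same gene, which would raise these shares. Unless stated otherwise, a fold change is the difference of 2 deposited log2 values, and its interval is the 95% Clopper-Pearson interval of the ratio of the recovered reads at the effective sizes of the libraries. It covers counting error only. A gene is counted as past 2-fold when it differed by at least 2-fold with at least 4 normalized reads in at least 1 of the libraries compared. Where the lower library held 0 reads, the fold is given against a floor of 3 reads per library as "at least". This bound takes the reads of the higher library as exact, so the interval can begin below it. Where the lower library held 1 to 3 reads, the ratio of reads is given with its interval.

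Slc4a1 (chromosome 11, 102348824 to 102366203, minus strand) encodes band 3, the chloride-bicarbonate exchanger and anchor of the red cell membrane. It had 30 reads in control, 55 in exercise-only, 47 in tumor-only and 1273 in tumor-exercise, which are log2 values of 5.16, 5.66, 5.40 and 10.44. The first 3 libraries differed by at most 0.50 on the log2 scale, and the tumor-exercise library lay above them all. In tumor-exercise vs tumor-only the log2 fold change was 5.04 (interval 4.65 to 5.52), and in tumor-exercise vs exercise-only it was 4.78 (4.42 to 5.22). Epb42 (chromosome 2, 121017891 to 121037072, minus strand) encodes protein 4.2, which binds band 3 and ankyrin. It had 20 reads in tumor-exercise and 0 in each of the other libraries. It was thus at least 8.27-fold higher in tumor-exercise than in tumor-only and at least 8.06-fold higher than in exercise-only. The intervals of the log2 ratio begin at 2.61 and 2.58 in the same order. Rhag (chromosome 17, 40811126 to 40840754, plus strand) encodes the Rh-associated glycoprotein, the ammonium and gas channel of the Rh complex. It had 0 reads in control, 0 in exercise-only, 2 in tumor-only and 27 in tumor-exercise, and the ratio of reads in tumor-exercise vs tumor-only was 16.7-fold, 4.07 on the log2 scale (interval 2.07 to 7.18). Against exercise-only it was at least 10.9-fold higher, with an interval that begins at 3.05 on the log2 scale. These 3 membrane genes thus had their highest value in tumor-exercise, and Epb42 and Rhag were at or under the floor in the other libraries.

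**Figure D1:**
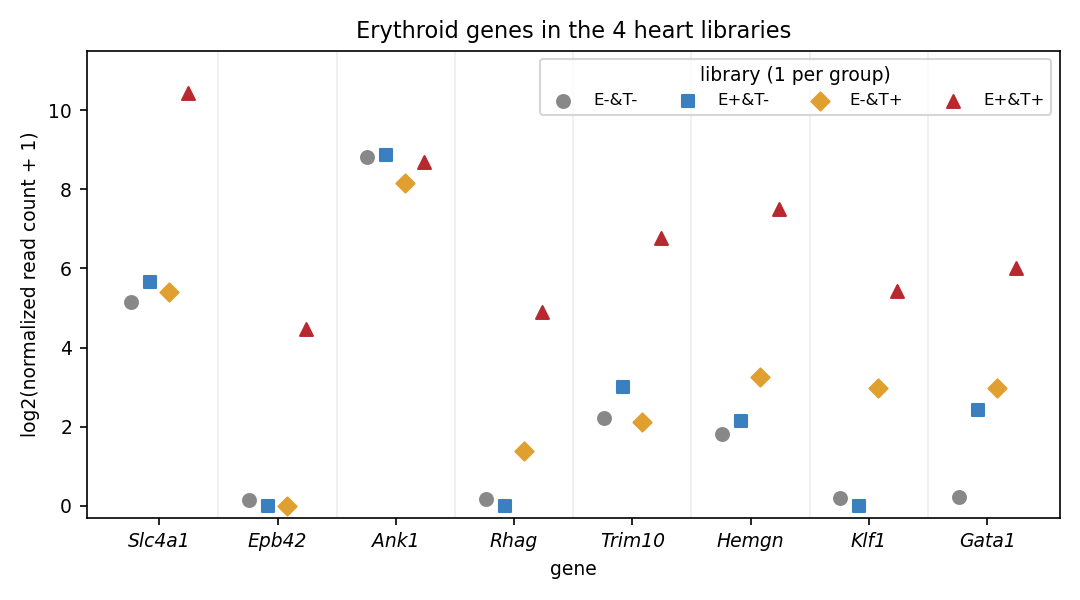
Level of each gene in each heart library, as deposited, on a log2(normalized read count + 1) axis, with 1 point per library and no error bar because each group has 1 library. The E+&T+ library is the highest for 7 genes, with Slc4a1 at 10.44, whereas the 4 values of Ank1 lie between 8.17 and 8.88.

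Ank1 was the member that did not follow the others. It encodes erythrocyte ankyrin, and a short form of the same gene sits in the sarcoplasmic reticulum of striated muscle. Its reads were 393 in control, 519 in exercise-only, 325 in tumor-only and 379 in tumor-exercise, with log2 values of 8.82, 8.88, 8.17 and 8.70, so that tumor-exercise lay between the libraries without tumor and the tumor-only library. The log2 fold change was 0.53 (0.31 to 0.75) in tumor-exercise vs tumor-only and −0.18 (−0.37 to 0.014) in tumor-exercise vs exercise-only, both below 2-fold. The first of these was 0.54 under median-of-ratios scaling and 0.50 under scaling to the reads outside globin. Scaling to library size, which put the median of all genes there at −0.59, gave −0.054, so the sign depended on that scaling. In tumor-only vs control it was −0.65 (−0.87 to −0.44). In the GENCODE annotation of the same genome build, Ank1 lies on the plus strand of chromosome 8, at 22974844 to 23150497, and 12 of its 13 protein-coding transcripts end within 2192 bases of each other. Of these 12, 9 span over 90000 bases and 3 span under 20000 bases, the shortest 9029. A library of 3′ ends counted per gene does not separate the long from the short forms. The long non-coding gene Gm15816 and the microRNA gene Mir3107 lie on the opposite strand within Ank1, and the sources used here do not state whether the counting used strand.

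Trim10 (chromosome 17, 36869574 to 36877833, plus strand) is a TRIM-family gene of maturing erythroid cells. It had 3 reads in control, 8 in exercise-only, 4 in tumor-only and 100 in tumor-exercise. Its log2 values were 2.23, 3.01, 2.11 and 6.78, and its log2 fold change was 4.66 (3.55 to 6.86) in tumor-exercise vs tumor-only and 3.76 (2.88 to 5.17) in tumor-exercise vs exercise-only. Between the other libraries its reads are too few to show a difference, the ratio in exercise-only vs control having an interval of −0.99 to 3.62 on the log2 scale. Hemgn (chromosome 4, 46393989 to 46413506, minus strand) encodes hemogen, a nuclear protein of blood precursors. It had 2 reads in control, 4 in exercise-only, 10 in tumor-only and 165 in tumor-exercise, and its log2 fold changes were 4.23 (3.44 to 5.44) in tumor-exercise vs tumor-only and 5.34 (4.26 to 7.53) in tumor-exercise vs exercise-only. In tumor-only vs control the ratio of its reads was 1.94 on the log2 scale, with an interval of −0.29 to 5.17 that includes no difference.

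Klf1 and Gata1 encode the factors that direct the red cell program, and both had reads in each of the tumor libraries. Klf1 (chromosome 8, 84901928 to 84905291, plus strand) had 0 reads in control, 0 in exercise-only, 8 in tumor-only and 39 in tumor-exercise. Gata1 (chromosome X, 7959260 to 7978071, minus strand) had 0, 5, 8 and 59 reads in the same order. In tumor-only vs control, each stood 2.05-fold above the floor, a log2 bound of 1.04. The interval of the log2 ratio began lower, at 0.39. In tumor-exercise vs tumor-only, the log2 fold change was 2.44 (1.48 to 3.90) for Klf1 and 3.04 (2.12 to 4.47) for Gata1. Klf1 was at least 15.7-fold higher in tumor-exercise than in exercise-only, with an interval that begins at 3.61 on the log2 scale. Gata1 had a log2 fold change of 3.59 (2.53 to 5.51) there. The 5 reads of Gata1 in exercise-only stand 1.32-fold above the floor in control, but the interval begins at −0.47 and so includes no difference.

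Counted over the set, 7 of the 8 members were past 2-fold and higher in tumor-exercise vs tumor-only, where 9.39% of the 14363 genes tested were higher, 10.0% lower and 19.4% either. The median log2 fold change of the 8 was 3.87, or 3.28 with Epb42 at its bound, beside −0.012 for all genes tested. In tumor-exercise vs exercise-only, the same 7 were past 2-fold and higher, beside 12.0% of 14289 genes higher, 11.1% lower and 23.0% either, with a median of 4.63, or 3.68 with the genes at 0 reads at their bounds. All 8 members passed the count minimum in both. In tumor-exercise vs tumor-only, Epb42, Rhag and Trim10 passed it only through tumor-exercise. In tumor-exercise vs exercise-only, Epb42, Rhag, Hemgn and Klf1 did. In tumor-only vs control, Hemgn, Klf1 and Gata1 were past 2-fold and higher, beside 14.6% of 14317 genes higher, 13.1% lower and 27.6% either, and 5 members passed the minimum. In exercise-only vs control, Gata1 alone among the 8 was past 2-fold by its deposited values, beside 5.88% of 13937 genes higher, 6.4% lower and 12.3% either, and 4 members passed the minimum. Hemgn, Klf1 and Gata1 passed only through tumor-only in the first of these 2 comparisons, and Trim10 and Gata1 only through exercise-only in the second. A gene that passes only through its higher library can be counted only as higher. No member was past 2-fold and lower in any of the 4 comparisons. Since the members were chosen with these levels in view, these counts say nothing beyond the values. The 2 exercise comparisons share no library, but tumor-only and control each also serve in the tumor comparison, and tumor-exercise serves in both comparisons with the large differences.

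**Figure D2:**
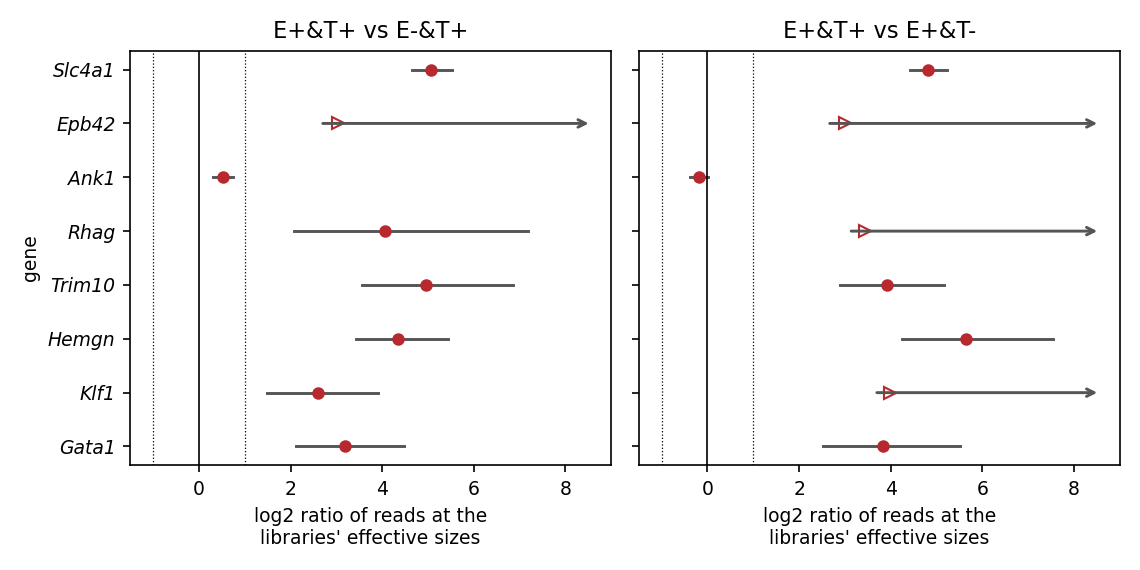
Log2 ratio of recovered reads at the effective library sizes for E+&T+ vs E-&T+ (left) and E+&T+ vs E+&T- (right), 1 row per gene, with points for the ratio and lines for the 95% counting interval. Open triangles mark the bound against a floor of 3 reads where the lower library had 0, with an arrow for the open interval, and dotted lines mark 2-fold. The intervals of 7 genes lie above 2-fold in both panels, and the point of Ank1 lies at 0.53 on the left and −0.18 on the right.

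By the deposited values, the difference between the exercise effects with and without tumor was 4.54 on the log2 scale for Slc4a1. It was 3.88 for Trim10, 3.90 for Hemgn and 0.47 for Ank1, the last of which was −0.093 under library size scaling. The effect without tumor rests on 3 and 8 reads for Trim10, with a log2 interval of −0.99 to 3.62. For Hemgn it rests on 2 and 4 reads, with an interval of −2.14 to 4.12. The difference could not be formed for Epb42, Rhag and Klf1, which had 0 reads in both libraries without tumor. For Gata1, which had 0 reads in control, it was 0.85 by the deposited values and −0.18 under library size scaling, so it had no stable direction. With 1 library per group these differences were not tested.

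Relative to globin the members did not move alike. Normalized globin reads differed little among the control, exercise-only and tumor-only libraries, by 0.973-fold in exercise-only vs control and 0.998-fold in tumor-only vs control, and were 7.13-fold higher in tumor-exercise than in tumor-only. Per 100000 globin reads, all 8 members together had 74.1 reads in control, 83.0 in exercise-only, 54.0 in tumor-only and 47.9 in tumor-exercise, most of them from Ank1 except in tumor-exercise, and the fold in tumor-exercise vs tumor-only was 0.888 (interval 0.798 to 0.990). With Ank1 left out, a choice made after its values were seen, the other 7 had 6.06 reads in control, 10.1 in exercise-only, 10.5 in tumor-only and 39.1 in tumor-exercise. This ratio within a library does not depend on how the libraries were scaled, and it was 3.71-fold higher (interval 2.96 to 4.71) in tumor-exercise than in tumor-only. Slc4a1 supplied 1273 of the 1683 reads of these 7 members in tumor-exercise, and without it the remaining 6 members were 2.23-fold higher (1.55 to 3.3). Slc4a1 alone was 4.71-fold higher per globin read (3.52 to 6.45), Trim10 4.35-fold (1.65 to 16.3) and Hemgn 2.87-fold (1.52 to 6.10). Klf1 and Gata1 had ratios near 1, at 0.848-fold (0.391 to 2.10) and 1.28-fold (0.611 to 3.11), with intervals that include no difference. Rhag had a ratio of 2.35-fold on 2 reads in tumor-only, with an interval of 0.590 to 20.4. Ank1 stood at 0.203 of its ratio to globin (0.175 to 0.236). Globin was counted over 8 rows, of which Hbb-bs and Hbb-b1 had near-equal reads, as had Hbb-bt and Hbb-b2, so that some reads may be counted under both symbols of a gene. With the beta globin rows alone as the divisor the fold for the 7 members was 3.30, and with Alas2 it was 3.94.

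**Figure D3:**
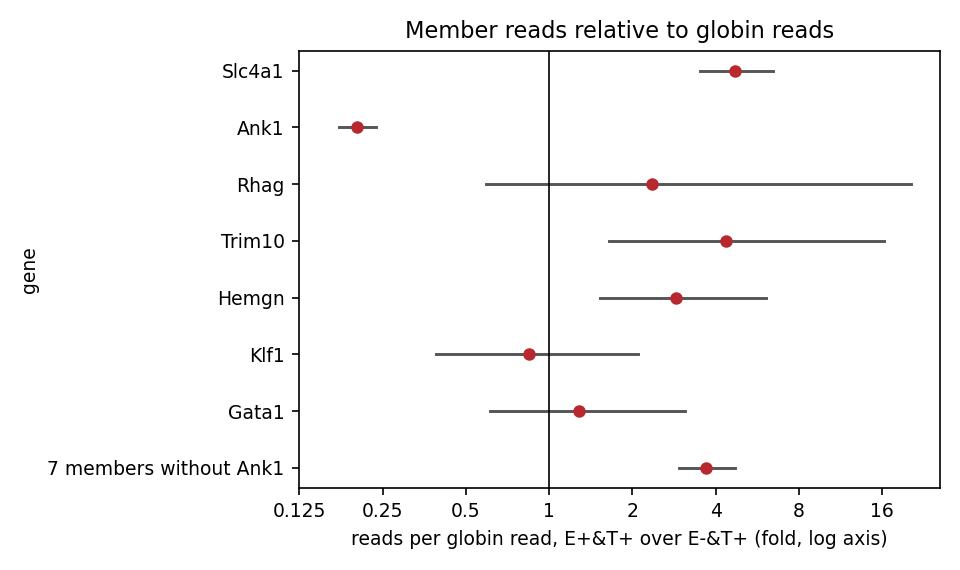
Reads per globin read in E+&T+ divided by the same ratio in E-&T+, on a log axis, with points for the fold and lines for the 95% counting interval. Epb42 is not drawn because it had 0 reads in E-&T+. Slc4a1, Trim10 and Hemgn lie above 1 at 4.71, 4.35 and 2.87, Klf1 and Gata1 have intervals that cross 1, and Ank1 lies at 0.203.

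The balance between the transcription factors and band 3 was also taken within each library, where scaling plays no part. Of the reads of Klf1, Gata1 and Slc4a1 together, Klf1 and Gata1 made up 25.4% in tumor-only (16 reads beside 47 of Slc4a1, exact 95% interval 15.3 to 37.9) and 7.15% in tumor-exercise (98 beside 1273, 5.84 to 8.64). The intervals of these shares do not overlap, but they cover counting error only, and the genes were chosen with their levels in view. With no replicate, a shift in this balance cannot be told apart from a difference between the hearts taken, and it was not tested. In exercise-only the share was 8.33% (2.76 to 18.4), and in control it was 0 reads beside 30, with an interval up to 11.6%. Trim10 in the same reckoning made up 7.84% (2.18 to 18.9) of its reads plus those of Slc4a1 in tumor-only and 7.28% (5.96 to 8.79) in tumor-exercise, a difference that is not detectable at this depth.

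Other gene lists were set beside the members, and of each list the genes with the highest mean level are named, together with some that were picked after their values were seen. Scaling to library size put the median of all genes in tumor-exercise vs tumor-only at −0.59 on the log2 scale, against −0.041 when globin reads were left out of the library size, and counts of the erythroid lists and the paralogs are also given under it. Of the 18 other genes of the red cell membrane and skeleton found, 12 were past 2-fold and higher in tumor-exercise vs tumor-only and none lower, with a median of 1.34, and under library size scaling 8 were higher. Among the 6 of highest mean level, Epb41, the protein 4.1 gene, was higher by 1.87 (1.80 to 1.94). Rhd, the partner of Rhag in the Rh complex, was higher by 1.12 (0.87 to 1.38), but by 0.54 under library size scaling. Rhd had 176 reads in control, 176 in exercise-only, 204 in tumor-only and 359 in tumor-exercise. Aqp1, Tmod1, Sptb and Stom were not past 2-fold, and Aqp1 is also expressed in endothelium and Tmod1 in striated muscle. Sptb, which encodes erythrocyte β-spectrin, had 382 reads in control, 483 in exercise-only, 426 in tumor-only and 449 in tumor-exercise. In control, Epb42, Rhag and Klf1 had 0 reads, and which cells gave the reads of Sptb was not tested. Its log2 fold change in tumor-exercise vs tumor-only was 0.39 (0.19 to 0.58), and 0.35 under scaling to the reads outside globin. Under library size scaling, which lowered the median of all genes, it was −0.20, so that like Ank1 its sign depended on that scaling. Tspo2, Kel and Ermap were picked after their values were seen. Tspo2, an erythroid membrane protein, had 63 reads in tumor-exercise and 0 in the others. Its log2 bound in tumor-exercise vs tumor-only was 4.70, with an interval that begins at 4.36. Kel and Ermap encode blood group proteins. They had 0 reads in both libraries without tumor, 2 and 10 in tumor-only, and 36 and 54 in tumor-exercise. In tumor-only vs control, 2 genes of this list were higher, Ermap and Slc43a1, and 3 were lower, Aqp1, Xk and Dmtn.

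Of the other transcription factors of the program, 14 were tested, and 3 were past 2-fold and higher in tumor-exercise vs tumor-only, E2f2, Sox6 and Gfi1b, and 1, Runx1, was lower, with a median of 0.46. Under library size scaling 1 was higher and 3 lower, with a median of −0.064. E2f2, a cell cycle factor, had 55, 58, 131 and 876 reads in the order control, exercise-only, tumor-only and tumor-exercise, a log2 fold change of 3.04 (2.79 to 3.33). The others of high mean level were not past 2-fold, with Klf3 at 0.34, Zbtb7a at 0.21, Cbfa2t3 at −0.54, Lmo2 at 0.57 and Zfpm1, which encodes the GATA1 cofactor FOG1, at 0.52 (0.25 to 0.79). Under library size scaling the positive values among these turned negative, with Klf3 at −0.25, Zbtb7a at −0.38, Lmo2 at −0.020 and Zfpm1 at −0.064. Picked after their values were seen, Nfe2 and Gfi1b, factors of red cell and platelet precursors, had 0 reads in control, 5 and 1 in exercise-only, 13 and 7 in tumor-only, and 15 and 13 in tumor-exercise. Among 7 tested genes of early progenitors, 2 were higher in tumor-exercise vs tumor-only (1 of 6 tested under library size scaling), Kit on 2 and 4 reads and Myb on 0 and 7, and Gata2 was lower, at −1.18 (−1.5 to −0.88). Cd34, Hlf, Mecom and Meis1 were not past 2-fold. Since endothelium expresses Gata2 and Cd34, neither is particular to progenitors in this tissue. Others of these 2 lists also had many reads in control, where Klf1 and Gata1 had 0. Klf3 had 772 there, Zbtb7a 568, Lmo2 299, Hlf 214, Mecom 183 and Meis1 92. Which cells gave these reads was not tested, so values below 2-fold do not describe erythroid cells alone.

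The globin and heme genes and those of red cell maturation were mostly higher in tumor-exercise as well. Of 18 tested rows of globin and heme genes, 14 were past 2-fold and higher in tumor-exercise vs tumor-only and none lower, and 10 were higher under library size scaling. The 6 adult globin rows of highest level were higher by 2.30 to 3.30, and Alas2, the first enzyme of erythroid heme synthesis, by 2.75 (2.68 to 2.81). The globin rows are near-identical copies whose division of reads is uncertain. Hbb-bs and Hbb-b1 may be 2 symbols of the same gene, as may Hbb-bt and Hbb-b2, so these counts may hold a gene more than once. Of 17 tested maturation genes, 13 were higher and 1, Alox15, was lower, and under library size scaling 11 were higher and 1 lower. Bpgm, which makes the oxygen-affinity regulator of the red cell, was higher by 3.10 (2.95 to 3.26), Isg20 by 3.03, Ube2l6 by 3.0, Mkrn1 by 2.44 and Bnip3l, which directs the removal of mitochondria, by 1.4, and Prdx2, an antioxidant enzyme, was at 0.61. Picked after its values were seen, Car1, a red cell carbonic anhydrase, had 0, 1, 29 and 119 reads in the order control, exercise-only, tumor-only and tumor-exercise, and so, like Klf1, had nearly all its reads in the tumor libraries. Also picked in this way, Tfrc, the transferrin receptor, had 391, 626, 95 and 282 reads, and was higher by 1.87 (1.54 to 2.23) in tumor-exercise than in tumor-only but at −0.87 (−1.08 to −0.67) against exercise-only. Epor, the erythropoietin receptor and likewise picked, had 10 reads in control and at most 4 in each of the others.

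Of the paralogs of the members, many of which work in other tissues, 29 were tested, and 2 were past 2-fold and higher in tumor-exercise vs tumor-only, Rhd and Gata3, and 5 were lower, Klf2, Klf15, Gata2, Gata5 and Tgm1, with a median of 0.030. Under library size scaling none was higher and 9 were lower. Slc4a3, the anion exchanger of cardiac muscle, had a log2 fold change of 0.29 (0.16 to 0.42) beside the 5.04 of Slc4a1, and the ankyrins Ank2 and Ank3 had 0.08 and 0.36. Gata4 and Gata6, the GATA factors of the heart, had 0.51 and 0.18. These 5 values turned negative under library size scaling, at −0.30, −0.50, −0.22, −0.080 and −0.40 in the same order. Klf2, an endothelial factor, was at −1.08 (−1.18 to −0.98), and Klf9, Klf6, Klf4, Klf3 and Tgm2 were not past 2-fold.

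Gata1 is also used by megakaryocytes, mast cells and eosinophils, and markers of these and other cells were set beside it. The summed level of 12 megakaryocyte and platelet markers was 950.1 normalized reads in control, 1751 in exercise-only, 3551 in tumor-only and 2771 in tumor-exercise. Pf4 supplied 3175 of the 4025 reads of this list in tumor-only and 1604 of 2535 in tumor-exercise, so the sum mostly follows Pf4. Of the 10 tested, Ppbp was past 2-fold and higher in tumor-exercise vs tumor-only, and Pf4 was at −0.68. The median log2 fold change of the 12 markers there was 0.25, or −0.33 under library size scaling. The 8 mast cell markers summed to 159, 254, 376 and 371 normalized reads, with Ms4a2 at 0 or 1 read, and of the 7 tested 2 were higher, Cma1 and Mcpt4, and 2 lower, Tpsab1 and Fcer1a. The 7 eosinophil and basophil markers summed to at most 6.83 normalized reads in any library, with Epx and Mcpt8 at 0 reads in all. In tumor-only vs control, where Gata1 had 8 reads against 0, 6 of the megakaryocyte and platelet markers, 5 of the mast cell markers and 7 of the 8 granulocyte precursor markers were past 2-fold and higher. The part of these cells in the Gata1 reads was not tested.

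Markers of other cells also differed between the libraries. The 8 granulocyte precursor markers summed to 287 normalized reads in tumor-only and 331 in tumor-exercise, against 16.1 in control and 13.7 in exercise-only, with 1 of the 7 tested, Ngp, higher in tumor-exercise vs tumor-only. Of the 6 leukocyte markers tested, S100a8 was higher by 1.06 (0.97 to 1.15) and Lyz2 lower, at −1.56 (−1.74 to −1.39). Of 9 proliferation genes, Mki67, at 36, 31, 93 and 363 reads in the order control, exercise-only, tumor-only and tumor-exercise, was higher by 2.26 (1.94 to 2.62) and Rrm2 by 1.23 (0.52 to 2.07), and Top2a was at 0.38, or −0.21 under library size scaling, and Cdk1 at −0.11. Of 10 cardiomyocyte markers, Nppa was past 2-fold and higher, by 1.43, and of 6 endothelial markers none was past 2-fold. Of 6 fibroblast markers, Col3a1 at −3.31, Col1a1 at −3.09 and Pdgfra at −1.39 were lower. Under library size scaling Ppbp, Ngp, S100a8, Rrm2 and Nppa were no longer past 2-fold. The counts lower in tumor-exercise vs tumor-only became 5 for the fibroblast, 3 for the mast cell, 2 for the leukocyte, 2 for the megakaryocyte and platelet and 1 for the granulocyte precursor markers, and 1 mast cell marker was higher. The part of these cells in the erythroid values was not tested.

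**Figure D4:**
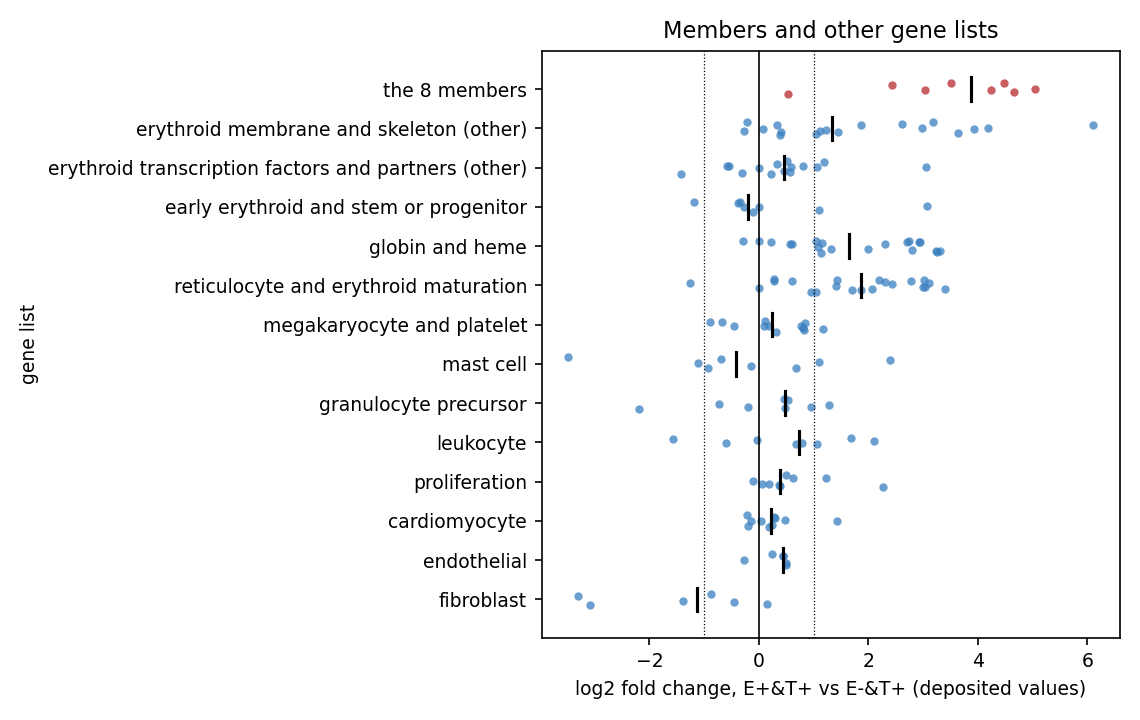
Log2 fold change in E+&T+ vs E-&T+ of the deposited values for the 8 members and the genes of the other lists, with 1 point per gene, a black bar at the median of each list and dotted lines at 2-fold. The members have a median of 3.87 with Ank1 at 0.53, the erythroid membrane, globin and maturation lists lie mostly above 0, and the cardiomyocyte, endothelial and platelet lists have medians of 0.21, 0.44 and 0.25.

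The genes whose profile over the 4 libraries was most like that of the members were sought among the 11633 genes whose mean reached 16 normalized reads, by the Euclidean distance of each centred log2 profile to the median centred profile of the 8. The nearest was Car2, the red cell carbonic anhydrase 2, at a distance of 0.569, with 33, 45, 66 and 568 reads. It was followed by Cd24a, a surface antigen of immature blood cells, at 0.705, E2f2 at 0.716, Fam46c at 0.764, Tspan33 at 0.766 and Add2 at 0.771. Cyp2b10 at 1.01, Hist1h2ak at 1.20 and Slc25a37, the mitochondrial iron importer of erythroid cells, at 1.24 were also among the nearest 10. Of the members, Rhag lay nearest to the median profile, at 0.583, and Ank1 farthest, at 3.86, with the others between 0.794 and 1.74. The likeness rests on 4 libraries and mostly on the height of tumor-exercise.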

How the data were processed

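Heart mRNA was measured in 4 libraries, 1 per group, prepared from the 3′ end of poly(A) RNA (QuantSeq) and sequenced as single-end reads. Per the labels and the study's methods, the authors aligned the reads with Bowtie2 to mm10, counted them with Bedtools and normalized them with the quantile method of edgeR, and they deposited log2(normalized read count + 1) values for 23282 genes. Whole reads were recovered by inverting the library size adjustment (common dispersion 0.149), and of the 25460 values recovered as 5 to 99 reads, 100% were whole to within 0.1. The inversion was tested on simulated data for 16812 genes, where 97.7% of values came back exactly.

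A gene was called past 2-fold at a minimum of 4 normalized reads in at least 1 of 2 libraries, after the study's methods. With 1 library per group no test across genes was run, and intervals and floors cover counting error only. The members and lists were chosen with earlier results of these data known. Genes named were the members, up to 6 of each list by mean level, genes compared with a member, and the 10 with the nearest profile. Others were picked after their values were seen. Some of the genes that this rule names are not reported here. Gene positions were read from GENCODE M21 and promoters from RefSeq, both on GRCm38, the build of mm10. Alternatives were library size, median-of-ratios and outside-globin scaling, a pseudocount of 4, a minimum of 16 and none, and the beta globin rows or Alas2 as divisor. Python 3.11.15, scipy 1.17.1 and R 4.3.3 were used.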

Additional observations from a re-analysis of the deposited data

Results flagged for a closer look

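Trim10 had tumor effects of opposite sign with and without exercise. The log2 difference was −0.11 in tumor-only vs control, on 4 and 3 reads, and 3.76 in tumor-exercise vs exercise-only, on 100 and 8 reads. The first value is small beside its counting interval, −2.53 to 2.81 for the ratio of reads, which was 0.037 on the log2 scale and so of the other sign. With 1 library per group the difference was not tested.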

How the results depend on the processing

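No paired analysis was possible because each group has 1 library and no result comes from a test, and for the same reason no replicate could be left out. No value of a member past 2-fold changed sign under the scalings and pseudocount tried. Member values below 2-fold that did were Ank1 in tumor-exercise vs tumor-only (−0.054, reported as 0.53) and its difference of exercise effects (−0.093, reported as 0.47) under library size scaling, and Trim10 in tumor-only vs control (0.044, reported as −0.11) under median-of-ratios scaling. So did the difference of exercise effects of Gata1 (−0.18, reported as 0.85) under library size scaling. Under a minimum of 16 normalized reads the genes past 2-fold numbered 782 in exercise-only vs control (reported as 1711), 1628 in tumor-exercise vs tumor-only (reported as 2790) and 2102 in tumor-exercise vs exercise-only (reported as 3289), since fewer genes were tested, and the members past 2-fold numbered 0 in exercise-only vs control (reported as 1) and 0 in tumor-only vs control (reported as 3). With no minimum, 2798 genes passed in exercise-only vs control. Library size scaling gave 5793 genes in tumor-exercise vs exercise-only, split 796 higher to 4997 lower, or 13.7% higher against 52.0% in the deposited values. In tumor-exercise vs tumor-only it gave 535 to 3604, or 12.9% against 48.4%, and in tumor-only vs control 1792 to 2469, or 42.1% against 52.7%. Scaling to the reads outside globin gave 1455 to 2070 in tumor-exercise vs exercise-only, or 41.3%, and 1758 to 2370 in tumor-only vs control, or 42.6%. The other 51 counts, medians and ratios moved by less than 1.5 times or less than their counting error. Of single values, 7 moved by more, among them Slc4a1 at 4.45 and 4.06 in tumor-exercise vs tumor-only and vs exercise-only under library size scaling, where Ank1 stood at −0.90 in the latter. Depth limits Epb42, Rhag, Trim10, Klf1 and Gata1 in the 3 libraries other than tumor-exercise, where each had at most 8 reads, and Hemgn, which had at most 10.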
